A study of Mus musculus with 8 samples.

Results

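The phagocyte NADPH oxidase, the superoxide dismutases and catalase were followed in 8 genes chosen by name. Cybb, Cyba, Ncf1 and Ncf4 encode subunits of the oxidase, Sod1, Sod2 and Sod3 are the mouse superoxide dismutases, and Cat is catalase. All 8 were among the 52636 gene identifiers counted, and 7 of them were among the 13847 genes with enough counts to be tested. In LPS-treated microglia Sod2, Ncf4 and Cybb RNA rose, by 12.2-fold, 2.52-fold and 1.90-fold, and Cat RNA fell, by 1.63-fold. The Cybb call was lost when libraries were scaled by their totals alone, and the Cat call when certain single libraries were left out. Cyba, Ncf1 and Sod1 did not pass the test, and Sod3 had too few counts to be tested.

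The phagocyte oxidase moves electrons from NADPH across a membrane to oxygen and so makes superoxide. Its catalytic core, NOX2 (Cybb) bound to p22phox (Cyba), sits in the membrane, and cytosolic subunits, among them p47phox (Ncf1) and p40phox (Ncf4), join it with a Rac GTPase when the cell is stimulated. Superoxide dismutases turn superoxide into hydrogen peroxide, in the cytosol (Sod1), the mitochondrial matrix (Sod2) or outside the cell (Sod3), and catalase breaks hydrogen peroxide down. In the brain, microglia are the main cells known to use NOX2, and bacterial lipopolysaccharide (LPS) is a common stimulus of these cells through Toll-like receptor 4.

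Wild-type microglia, of strain C57BL/6 by the labels and from C57BL/6N pups by the study's methods, were shaken off mixed glial cultures of neonatal mouse brains, kept in serum with the growth factor CSF-1, and given 5 µg/ml LPS or vehicle for 24 h. RNA was sequenced from 4 Vehicle and 4 LPS libraries, labelled as biological replicates 1 to 4. Pooling of animals in a culture is not given in the sources used here, and CSF-1 was part of the medium of both groups. The libraries hold RNA of 1 time point, and neither protein nor superoxide is analysed here.

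Library totals lay between 20071921 and 30604447 counts. The scaling factors of the trimmed mean of M-values (TMM) were 1.21 to 1.32 in Vehicle and 0.701 to 0.833 in LPS libraries, and the 100 most abundant genes held 27.1% to 29.3% and 35.0% to 37.0% of the counts. Levels below are counts-per-million (CPM) after TMM scaling. All 9 microglia markers were detected, with a summed level of 9087 to 10327 CPM in Vehicle and 2577 to 3012 CPM in LPS libraries, and 7 of the 9 were called lower and 1, Itgam, higher with LPS. Neutrophils also carry much oxidase RNA. Of 8 neutrophil markers 6 had at most 3 counts in every library, Mpo and Retnlg among them at 0. The summed level of the list was 2.00 to 13.8 CPM in Vehicle and 130 to 583 CPM in LPS libraries, of which Mmp8 made up 5.71 ± 5.53 and 278 ± 210 CPM (SD, n = 4). The summed endothelial list lay at 31.2 to 73.8 CPM and 163 to 254 CPM with Cldn5 at 0, the astrocyte list at 18.2 to 43.3 CPM and 39.3 to 119 CPM, and the oligodendrocyte lineage list at 92.8 to 146 CPM and 17.6 to 23.4 CPM. Of the astrocyte markers Gja1 was at 0.872 ± 0.221 and 48.5 ± 33.1 CPM (SD, n = 4), and 1 was called higher and 3 lower. The fibroblast and mural list lay at 3.76 to 7.55 CPM and 7.57 to 25.0 CPM, of which Dcn made up 0.136 ± 0.0885 and 8.89 ± 7.06 CPM (SD, n = 4). The part of such cells in the member values was not tested. In RNA of whole cultures, fewer cells of a type and less RNA per cell cannot be told apart.

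The sequence before the start of transcription is shown for Sod2 and Cybb, which rose, and for Sod1, whose protein has the same activity as that of Sod2 in another compartment and whose RNA did not pass the test. Each line holds the 250 bases upstream of the RefSeq start on GRCm38.p6, read along the gene's strand. They are chr17:13007589-13007838 (plus strand) for Sod2, chr16:90220512-90220761 (plus strand) for Sod1 and chrX:9469325-9469574 (minus strand) for Cybb. Capitals mark matches, on either strand, to the GC box (GGGCGG), the CCAAT box (CCAAT), the TATA box (TATAAA) and an NF-kB consensus.
Sod2: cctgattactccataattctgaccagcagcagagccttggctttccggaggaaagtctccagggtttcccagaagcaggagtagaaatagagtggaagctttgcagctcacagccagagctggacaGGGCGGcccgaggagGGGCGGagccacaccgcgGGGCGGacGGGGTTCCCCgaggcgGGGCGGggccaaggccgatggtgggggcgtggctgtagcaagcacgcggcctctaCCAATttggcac
Sod1: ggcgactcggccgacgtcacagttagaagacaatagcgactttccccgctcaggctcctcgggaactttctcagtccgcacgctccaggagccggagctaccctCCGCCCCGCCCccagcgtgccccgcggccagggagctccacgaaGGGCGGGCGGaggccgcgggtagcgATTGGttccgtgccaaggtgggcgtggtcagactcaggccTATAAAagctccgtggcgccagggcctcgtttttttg
Cybb: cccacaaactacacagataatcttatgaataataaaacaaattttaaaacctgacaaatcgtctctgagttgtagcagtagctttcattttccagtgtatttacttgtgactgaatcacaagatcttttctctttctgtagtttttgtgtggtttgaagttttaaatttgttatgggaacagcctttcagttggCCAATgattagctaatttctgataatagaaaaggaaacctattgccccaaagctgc
The Sod2 window held 4 GC boxes, 1 CCAAT box and 1 NF-kB match that reads on both strands, which lies 83 to 74 bases before the start and between GC boxes. The Sod1 window held 4 GC boxes in 2 overlapping pairs, a CCAAT box, and a TATA box 37 to 32 bases before the start. The Cybb window held a single CCAAT box, 56 to 52 bases before the start, and its share of G and C was 34.0%, against 63.6% for Sod2 and 66.4% for Sod1. Among 32851 promoter windows of this length, 32.7% held a GC box, 33.8% a CCAAT box, 12.4% a TATA box and 7.25% an NF-kB match. A match describes letters and not binding, and the Cat window, whose RNA fell, also held an NF-kB match, 116 to 107 bases before its start. Of the 8 genes, 6 had a promoter entry.

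Of the 7 members tested, 3 rose and 1 fell (edgeR quasi-likelihood test, Benjamini-Hochberg adjusted p under 0.05), and the median log2 fold change of the 7 was 0.16. Over all genes tested 64.1% were called, 30.3% higher and 33.8% lower in LPS, and the median log2 fold change was -0.11, so a call by itself was the common outcome in this comparison. The CPM ranges of the groups did not overlap for 4 members (Cybb, Ncf4, Sod2 and Cat), against 60.2% of all genes tested. Scaling bears on these counts: with library totals alone the median log2 fold change of all genes was -0.79, and higher calls made up 19.0% of all calls, against 47.2% with TMM.

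**Figure D1:**
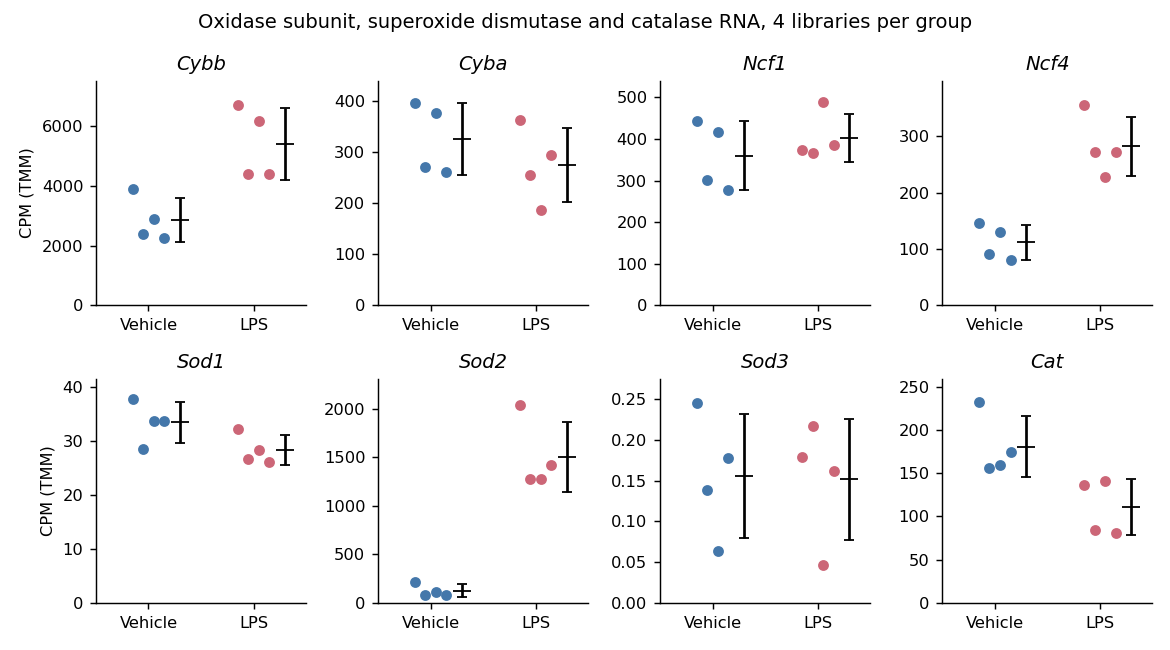
CPM of the 8 genes (vertical axes, from 0) in each of the 4 Vehicle (blue) and 4 LPS (red) libraries, drawn in the order of replicates 1 to 4, with black marks for the mean and bars for the SD. The groups are apart for Cybb, Ncf4, Sod2 and Cat, and they overlap for Cyba, Ncf1, Sod1 and Sod3, the last at 0.0466 to 0.245 CPM.

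Cybb (ENSMUSG00000015340, chrX:9435252-9487771, minus strand) encodes NOX2, the subunit that carries the electrons. It was at 3887, 2379, 2885 and 2238 CPM in Vehicle replicates 1 to 4. In LPS replicates 1 to 4 it was at 6722, 4383, 6159 and 4399 CPM. Every LPS library lay above every Vehicle library, with Vehicle 1 the closest to the LPS group. The mean went from 2848 ± 747 to 5416 ± 1205 CPM (SD, n = 4), a log2 fold change of 0.93 with a 95% interval of 0.41 to 1.45 (edgeR quasi-likelihood test, adjusted p = 0.00596). With library totals alone the value was 0.25 (adjusted p = 0.295), and relative to the median of all genes it was 1.04 under both scalings. A change of scaling shifts all genes by about the same amount. Values relative to this median, here and below, therefore stay alike and give no check of a call.

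Cyba (ENSMUSG00000006519, chr8:122424776-122432930, minus strand) encodes p22phox, the partner that keeps NOX2 stable in the membrane. Its Vehicle libraries were at 397, 270, 377 and 262 CPM, and its LPS libraries at 362, 256, 187 and 294 CPM. The groups overlapped over most of their range, with LPS 3 the lowest library and Vehicle 1 the highest. The means were 326 ± 70.2 and 275 ± 73.3 CPM (SD, n = 4), and the log2 fold change of -0.25 (95% interval -0.74 to 0.24) did not pass the test (edgeR, adjusted p = 0.338). Library totals alone gave -0.90 (adjusted p = 0.00731), which is -0.11 relative to the median of all genes.

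Ncf1 (ENSMUSG00000015950, chr5:134220053-134229625, minus strand) encodes p47phox, the organizer whose phosphorylation starts assembly. Vehicle libraries were at 443, 301, 417 and 277 CPM, and LPS libraries at 372, 365, 489 and 385 CPM. The LPS libraries fell inside the Vehicle range apart from LPS 3, which was the highest of all 8. The log2 fold change was 0.16 (95% interval -0.24 to 0.57, edgeR adjusted p = 0.443), and with library totals alone it turned to -0.52 (adjusted p = 0.0103), or 0.27 relative to the median of all genes under both scalings. On the opposite strand Gtf2ird2 covers 11.1% of the exonic bases of Ncf1, and it was at 9.86 ± 0.662 CPM in Vehicle and 4.20 ± 1.07 CPM in LPS libraries (SD, n = 4).

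Ncf4 (ENSMUSG00000071715, chr15:78244801-78262580, plus strand) encodes p40phox, which binds a phosphoinositide of phagosome membranes. It was at 147, 91.7, 130 and 80.8 CPM in the Vehicle libraries. In the LPS libraries it was at 355, 273, 228 and 273 CPM, so that the lowest LPS library was above the highest Vehicle library. The mean rose from 112 ± 31.03 to 282 ± 53.1 CPM (SD, n = 4), a log2 fold change of 1.33 with a 95% interval of 0.85 to 1.81 (edgeR, adjusted p = 4.07e-04). It was called under library totals alone as well, at 0.68 (adjusted p = 0.0186).

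Sod1 (ENSMUSG00000022982, chr16:90220754-90226329, plus strand) encodes the copper and zinc enzyme of the cytosol. Vehicle libraries were at 37.8, 28.5, 33.6 and 33.6 CPM, and LPS libraries at 32.2, 26.7, 28.3 and 26.0 CPM. LPS libraries were mostly the lower ones, but LPS 1 lay above Vehicle 2, and the group means of 33.4 ± 3.80 and 28.3 ± 2.78 CPM were close (SD, n = 4). The log2 fold change of -0.24 (95% interval -0.50 to 0.02) missed the threshold (edgeR, adjusted p = 0.0984). It passed with upper quartile scaling, at -0.39 (adjusted p = 0.0170), and with library totals alone, at -0.91 (adjusted p = 1.34e-04), which is -0.12 relative to the median of all genes. Without LPS 1 it was -0.30 (adjusted p = 0.0493). Of the 50-base windows of its principal transcript, 23.1% also occur in the processed pseudogene Gm8566, and reads that aligned to 1 place only were counted. Sod1 and Gm8566 summed gave 44.0 ± 4.76 and 37.1 ± 4.08 CPM (SD, n = 4), a log2 ratio of means of -0.24.

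Sod2 (ENSMUSG00000006818, chr17:13006846-13040063, plus strand) encodes the manganese enzyme of mitochondria. Its counts were 6302, 2362, 3577 and 2190 in Vehicle replicates 1 to 4 and 34107, 23505, 27376 and 26258 in LPS replicates 1 to 4. As levels these were 220, 81.6, 113 and 77.7 CPM and then 2039, 1279, 1276 and 1419 CPM. The lowest LPS library stood far above the highest Vehicle library, and replicate 1 was the highest in both groups. The mean rose from 123 ± 66.7 to 1503 ± 364 CPM (SD, n = 4), a 12.2-fold rise with a 95% interval of 6.90 to 21.5 (log2 fold change 3.61, edgeR, adjusted p = 2.33e-05). Its log2 fold change was above that of 96.9% of all genes tested. Relative to the median of all genes it was 3.72 with TMM and 3.74 with library totals alone. Of the 50-base windows of all annotated Sod2 transcripts, 21.0% also occur in other genes, against 1.43% of those of the principal transcript, which is the longest.

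Sod3 (ENSMUSG00000072941, chr5:52363791-52371418, plus strand) encodes the secreted enzyme, and its counts were near the floor. It had 7, 4, 2 and 5 counts in the Vehicle libraries and 3, 4, 1 and 3 counts in the LPS libraries. Summed, these were 18 of 92891963 counts (0.194 CPM, exact Poisson 95% interval 0.115 to 0.306) and 11 of 95787689 counts (0.115 CPM, 0.0573 to 0.205), without TMM scaling. The intervals, which cover counting error only, overlap, and a difference was not detectable at this depth.

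Cat (ENSMUSG00000027187, chr2:103453849-103485160, minus strand) encodes catalase, which removes hydrogen peroxide mostly in peroxisomes. Vehicle libraries were at 232, 156, 160 and 175 CPM, and LPS libraries at 137, 84.7, 141 and 80.5 CPM. The groups did not overlap, but the highest LPS library came close to the lowest Vehicle library, and the LPS libraries formed a higher pair (1 and 3) and a lower pair (2 and 4). The mean fell from 181 ± 35.4 to 111 ± 32.8 CPM (SD, n = 4), a log2 fold change of -0.71 with a 95% interval of -1.20 to -0.22 (edgeR, adjusted p = 0.0175). The call rests on single libraries: it was lost without Vehicle 1 (-0.53, adjusted p = 0.0597), without LPS 2 (-0.59, adjusted p = 0.0547) and without LPS 4 (-0.57, adjusted p = 0.0509).

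**Figure D2:**
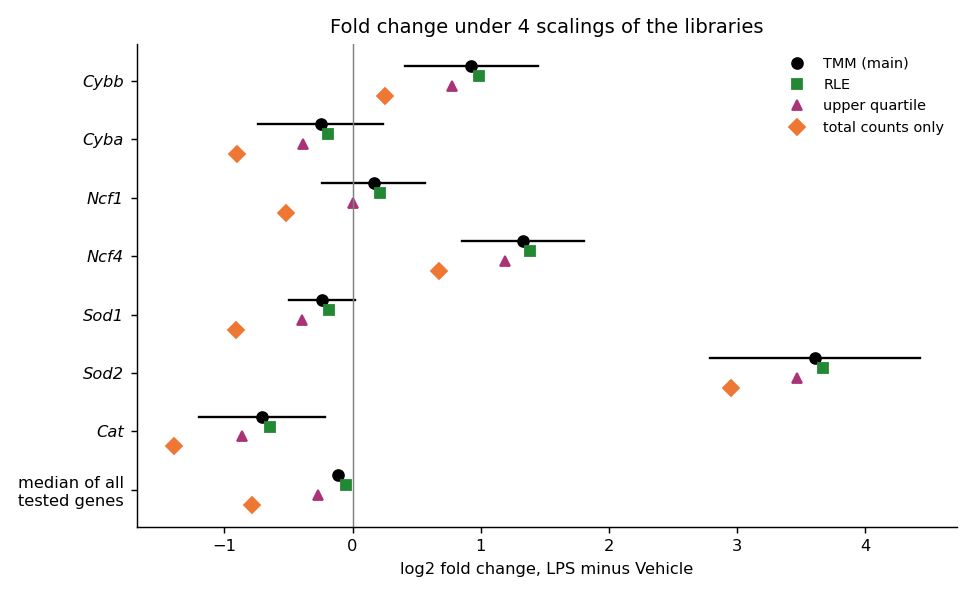
Log2 fold change (horizontal axis, LPS minus Vehicle) of the 7 genes tested and the median of all tested genes (rows) under 4 scalings, with black bars for the 95% interval of the TMM fit. Sod2 (3.61) and Ncf4 (1.33) stay right of 0 and Cat (-0.71) left of 0 under each scaling, and library totals alone shift every gene to the left, the median of all genes to -0.79.

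The Vehicle libraries were not alike for the oxidase genes. All 4 oxidase subunits and Sod2 had the same order of libraries, replicate 1 highest, then 3, 2 and 4, an order found in 5.14% of the 13847 genes tested. Vehicle 1 was the highest Vehicle library for all 8 members, for Sod3 at 7 counts against 5 in Vehicle 4. The share of all genes tested with Vehicle 1 highest was not computed. Without Vehicle 1 the log2 fold change was 4.08 for Sod2, 1.52 for Ncf4 and 1.15 for Cybb. Among LPS libraries the subunits had no common order, and Cyba, Ncf4 and Sod2 shared the order 1, 4, 2 and 3 with 8.75% of the genes tested. Relative to their means, the Vehicle libraries varied most for Sod2 among the tested members (coefficient of variation 54.1%) and least for Sod1 (11.4%).

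Genes can be compared in level only per length, here as CPM per kb of the union of each gene's exons. In Vehicle libraries the order was Cybb (490 ± 129), Cyba (314 ± 67.6), Ncf1 (98.1 ± 22.6), Cat (69.2 ± 13.5), Ncf4 (55.5 ± 15.4), Sod2 (12.3 ± 6.66), Sod1 (8.41 ± 0.957) and Sod3 (0.0417 ± 0.0203), each as mean ± SD of 4 libraries. The library ranges of Ncf1 and Cat, of Cat and Ncf4, and of Sod2 and Sod1 overlapped, so these neighbours were not set apart. In LPS libraries Cybb (932 ± 208 CPM per kb) stayed first and Cyba (264 ± 70.5) second. Sod2 moved up to 150 ± 36.3 CPM per kb, beside Ncf4 (140 ± 26.3) and Ncf1 (110 ± 15.8), and the ranges of each of these with the next overlapped, as did those of Cyba and Sod2. Cat (42.4 ± 12.5), Sod1 (7.13 ± 0.701) and Sod3 (0.0405 ± 0.0197) followed with no overlap.

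The place of Sod1 in this order depends on the length taken. The union of its exons, 3970 bases, includes a transcript with a retained intron, while its principal transcript has 641 bases. Per kb of principal transcript, a length chosen after seeing the data, Sod1 was at 52.1 ± 5.93 in Vehicle and 44.2 ± 4.34 CPM per kb in LPS libraries. Sod2 was then at 21.0 ± 11.4 and 256 ± 62.0 CPM per kb, below Sod1 in every Vehicle library and above it in every LPS library (SD, n = 4).

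**Figure D3:**
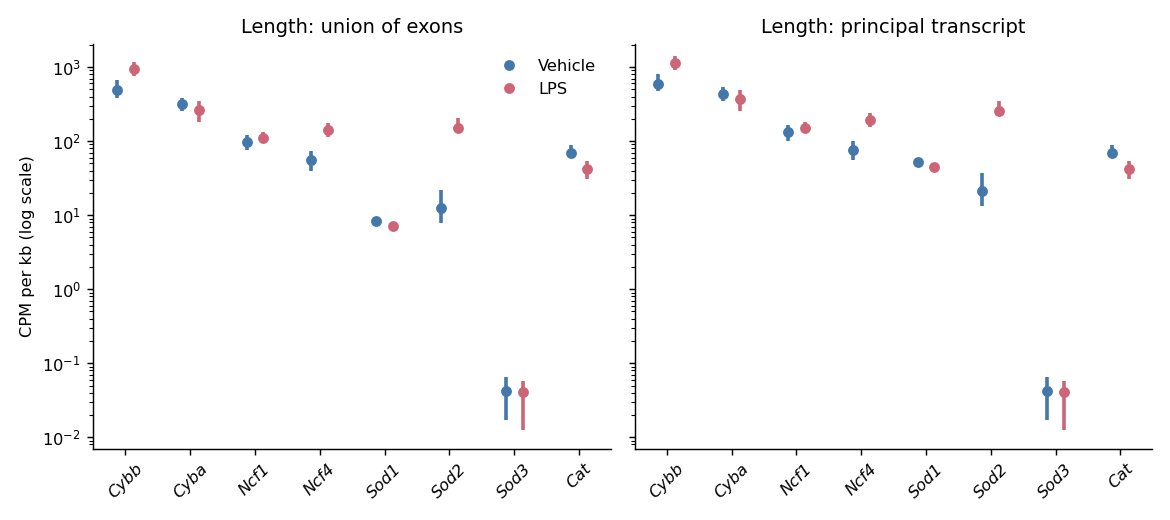
CPM per kb (vertical log axis) of the 8 genes in Vehicle (blue) and LPS (red), by the union of exons (left) and the principal transcript (right), with points for the mean of 4 libraries and lines from the lowest to the highest library. Cybb is the highest gene in every panel and group and Sod3 the lowest, and Sod1 moves from 8.41 to 52.1 CPM per kb in Vehicle with the length used.

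Ratios of 2 members within a library do not depend on library scaling, and 3 were compared. Cybb per kb over Cyba per kb, the partners of the membrane heterodimer, was 1.75, 1.57, 1.37 and 1.53 in the Vehicle libraries. In the LPS libraries it was 3.32, 3.06, 5.89 and 2.68, and LPS 3 stood out as the library with the least Cyba. The ratio was 2.30-fold higher with LPS (log2 difference 1.20, two-sided exact permutation test, p = 0.0286, adjusted over the 3 ratios 0.0286), with no overlap of the groups.

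Ncf1 over Ncf4, both cytosolic subunits, went the other way. It was 1.67, 1.81, 1.77 and 1.89 in the Vehicle libraries, a narrow range, and 0.578, 0.738, 1.18 and 0.777 in the LPS libraries. Every LPS library was below every Vehicle library, and Ncf4 exceeded Ncf1 per kb in 3 of 4 LPS libraries. The log2 difference was -1.17, a 2.25-fold fall (exact permutation test, p = 0.0286, adjusted 0.0286).

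Sod2 over Sod1 was 2.31, 1.14, 1.34 and 0.917 in the Vehicle libraries and 25.1, 19.0, 17.8 and 21.6 in the LPS libraries. The groups lay far apart, by a 15.5-fold change or a log2 difference of 3.95 (exact permutation test, p = 0.0286, adjusted 0.0286). By principal transcript the ratio ran from 0.253 to 0.637 in Vehicle and from 4.92 to 6.91 in LPS libraries, with the same difference between groups. For each of these ratios 0.0286 is the smallest p that 70 divisions of 8 libraries can give. It is reached by any ratio whose groups do not overlap, and 60.2% of single genes tested did not overlap in CPM. The share of other gene pairs that separate in this way was not computed. Each ratio restates the changes of its 2 members given above and is not a separate result. Taking same-numbered libraries as pairs, the exact sign flips gave p = 0.125, the smallest that 4 pairs allow.

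**Figure D4:**
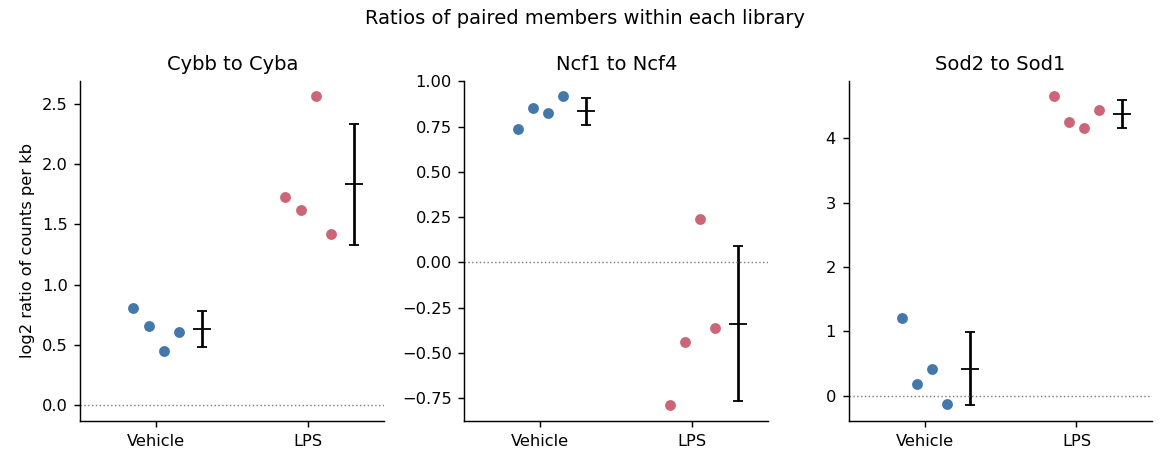
Log2 ratio of counts per kb within each library (vertical axes, dotted line at equal levels) for 3 pairs of genes, in 4 Vehicle (blue) and 4 LPS (red) libraries, with black marks for the mean and bars for the SD. The groups do not overlap in any panel, and they differ by 1.20, -1.17 and 3.95 on the log2 scale.

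Other genes of the NADPH oxidases were read from a list of 13, whose levels are given as mean ± SD of 4 libraries here and in the lists that follow. Of these 4 could be tested, and 3 rose and 1 fell (100% called, against 64.1% of all genes tested). Their median log2 fold change was 0.92 against -0.11 over all genes tested. Rac2, the Rac GTPase of blood cells that NOX2 uses, rose from 203 ± 44.7 to 1656 ± 184 CPM (log2 fold change 3.03, edgeR, adjusted p = 1.21e-06). Cybc1, a chaperone needed for NOX2 and p22phox protein, rose from 74.6 ± 6.82 to 213 ± 32.2 CPM (1.51, edgeR, adjusted p = 9.87e-06). Cybb, Ncf4, Rac2 and Cybc1 were each called higher, as were 30.3% of all genes tested. Cyba and Ncf1 had log2 fold changes of -0.25 and 0.16 that did not pass, and Hvcn1 of this list fell. A joint change of these genes was not tested.

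Rac1, the widely expressed Rac, was at 150 ± 7.07 and 189 ± 24.6 CPM, and its log2 fold change of 0.34 (edgeR, adjusted p = 0.0252) turned to -0.35 (adjusted p = 0.00484) with library totals alone. It missed the threshold without LPS 2 (0.35, adjusted p = 0.0519). Hvcn1, the proton channel that balances the charge the oxidase moves, fell from 42.9 ± 8.63 to 18.0 ± 5.26 CPM (-1.26, adjusted p = 0.00111). Exons of Daglb on the opposite strand cover 51.4% of those of Rac1, and exons of Tctn1 cover 44.2% of those of Hvcn1. Whether reads were counted by strand is not given in the sources used here, so reads of such partners cannot be told apart. The other 9 genes, among them Nox1, Nox3 and Nox4 and the Duox genes, stayed at or below 0.525 CPM in every library. Cybb was therefore the only one of the listed catalytic oxidase genes with enough counts to be tested.

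Genes that act on the assembly of the oxidase or on Rac formed a list of 17, all tested. Of these 11 rose, 3 fell and 3 did not pass (82.4% called, against 64.1% of all genes tested), and their median log2 fold change was 0.53. Among those that rose were Arhgdia (0.40) and Arhgdib (1.71), which are known to hold Rac inactive in the cytosol. Library totals alone gave 6 higher and 6 lower. Pla2g4a, the phospholipase that releases arachidonic acid, rose from 61.2 ± 4.87 to 397 ± 81.0 CPM (log2 fold change 2.70, edgeR, adjusted p = 8.85e-07), and Syk, a kinase downstream of phagocytic receptors, from 238 ± 76.2 to 1254 ± 112 CPM (2.40, adjusted p = 1.28e-05). Pak1, a kinase that acts on p47phox, fell from 63.0 ± 5.30 to 6.59 ± 0.754 CPM (-3.25, adjusted p = 9.70e-08). Prkca, a protein kinase C, was low at 7.97 ± 2.89 and 3.75 ± 1.51 CPM (-1.09, adjusted p = 0.0229), and its call was lost without Vehicle 1, Vehicle 2, Vehicle 4, LPS 2 or LPS 3, with values from -1.05 to -0.89.

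The list for peroxide removal and thiol reduction, which also holds the copper chaperone of Sod1, had 23 genes, of which 21 were tested. Of these 9 were higher, 9 lower and 3 not past the test (85.7% called, against 64.1% of all genes tested). Their median log2 fold change was -0.09, and library totals alone gave 8 higher and 12 lower. Glrx, a glutaredoxin, rose from 95.9 ± 13.9 to 1265 ± 83.4 CPM (3.72, edgeR, adjusted p = 1.44e-07). Prdx5, a peroxiredoxin found in mitochondria and peroxisomes, rose from 214 ± 87.4 to 2110 ± 614 CPM (3.30, adjusted p = 2.27e-05), and exons of Trmt112 on the opposite strand cover 19.1% of its exonic bases. Sesn1, a sestrin, fell from 190 ± 28.0 to 5.76 ± 1.58 CPM (-5.04, adjusted p = 1.78e-07). Gpx1, the abundant cytosolic glutathione peroxidase, fell from 231 ± 62.3 to 48.0 ± 2.66 CPM (-2.27, adjusted p = 4.87e-06). Ccs, the chaperone that loads copper into Sod1, fell from 15.1 ± 1.96 to 7.75 ± 0.580 CPM (-0.96, adjusted p = 1.64e-04).

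The list for NADPH supply holds cytosolic and mitochondrial enzymes, and use of their NADPH by the oxidase was not measured. All 14 genes of the list had enough counts to be tested. Of these 5 rose, 8 fell and 1 did not pass (92.9% called, against 64.1% of all genes tested). Their median log2 fold change was -0.58 against -0.11 over all genes tested, and library totals alone gave 2 higher and 8 lower. Mthfd2, a mitochondrial folate enzyme, rose from 33.0 ± 4.62 to 149 ± 17.8 CPM (2.17, edgeR, adjusted p = 1.20e-06). G6pdx, the entry enzyme of the pentose phosphate pathway, rose from 124 ± 8.64 to 347 ± 95.5 CPM (1.49, adjusted p = 8.10e-05). The isocitrate dehydrogenases that make NADPH fell in both compartments, cytosolic Idh1 from 226 ± 47.7 to 22.6 ± 3.70 CPM (-3.32, adjusted p = 5.81e-07) and mitochondrial Idh2 from 50.0 ± 2.41 to 4.35 ± 1.05 CPM (-3.53, adjusted p = 3.86e-07). Exons of Ikbkg cover 13.6% of those of G6pdx on the opposite strand.

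**Figure D5:**
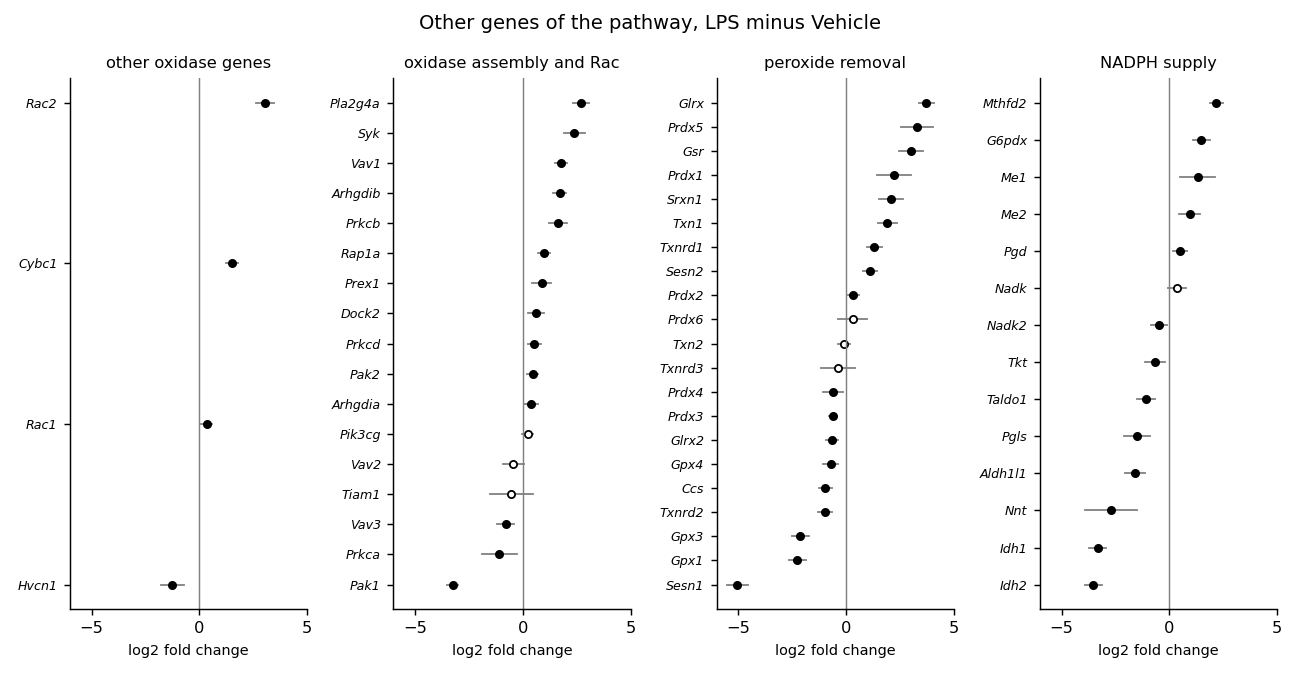
Log2 fold change (horizontal axes, LPS minus Vehicle) with 95% intervals for each tested gene of 4 lists, filled where the edgeR adjusted p is under 0.05 and open otherwise. In the oxidase list 3 of 4 genes lie right of 0, with Hvcn1 at -1.26, while the peroxide removal list runs from Sesn1 at -5.04 to Glrx at 3.72.

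Profiles over the 8 libraries were compared with those of 8349 genes of sufficient level, as the root mean square difference of log2 CPM after each gene was centred on its own mean. The profiles most like that of Cybb were those of Gsap (0.11), Cd82 (0.13), a tetraspanin, and Kdm7a (0.14), a histone demethylase. Those most like Sod2 were Irak3 (0.16), an inhibitor of Toll-like receptor signalling, and Prdx5 (0.27). The differences are on the log2 scale, and the profiles include the contrast between the groups.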

How the data were processed

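For each of 8 libraries the authors deposited counts that had not been normalized. Single-end reads of 50 bases had been aligned to GRCm38 with GSNAP through HTSeqGenie, and those with 1 alignment were assigned to Ensembl genes. The annotation release, the strand setting and any batch are not given in the sources used here, and the labels and the methods name different library kits. Groups and replicate numbers were taken from the labels, which do not say whether biological replicates were separate cultures, so p-values measure the spread between these libraries.

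Counts were tested with edgeR 4.0.16 in R 4.3.3 (TMM, filterByExpr at its settings of 10 counts per library and 15 counts in all, quasi-likelihood F-test, Benjamini-Hochberg over all genes tested, threshold 0.05). The fit was also run on simulated counts in which few genes changed, as often up as down. That run does not cover data in which most genes change. DESeq2 1.42.0 gave an alternative. Ratios used a pseudocount of 0.5 and exact permutation over libraries (scipy 1.17.1). Symbols, positions and lengths came from GENCODE vM21, and 233 of 52636 identifiers had no symbol there, with 0.0155% of the counts. Promoters came from RefSeq.

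Named were the 8 members, the 2 largest rises and falls of each list among called genes, Rac1, Rac2, Cybc1, Hvcn1, Ccs and Gpx1 in any case, and the 3 profiles most like each of Cybb and Sod2, of which 1 is not reported here. Genes named in addition include Arhgdia and Arhgdib. Members and lists were chosen with earlier results of these data known.

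Totals of 20071921 to 30604447 counts set the precision, and intervals from counts cover counting error only. No 2 libraries of a group agreed within sampling noise. Deviations of same-numbered libraries from their group means correlated at 0.37, 0.20, 0.17 and 0.11 over 8010 genes, so the numbers were treated as pairs in an alternative fit. The highest correlations with another number were -0.09, 0.15, 0.001 and 0.15, so number 4 was not matched best by its own.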

Additional observations from a re-analysis of the deposited data

Results flagged for a closer look

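Ncf1 in LPS replicate 3, at 489 CPM, stood apart from the other 3 LPS libraries, which lay at 365 to 385 CPM. It was flagged because its gap to the nearest library was large against the range of the group. The same library had the lowest Cyba level of the LPS group and the highest total count. Without it the log2 fold change of Ncf1 was 0.06 (edgeR, adjusted p = 0.766), and it did not pass the test with or without it. In all 22 groups of 4 values were examined in this way, and chance flags about 1 in 20.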

How the results depend on the processing

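The calls of Sod2 and Ncf4 and their direction held under each of the 15 alternatives: 3 other scalings, DESeq2, 2 other filters, the replicate block and the 8 fits without 1 library. With library totals alone Cybb lost its call (0.25, adjusted p = 0.295), Cyba (-0.90) and Sod1 (-0.91) gained one, and Ncf1 (-0.52) and Rac1 (-0.35) turned direction, while the median of all genes moved to -0.79. Upper quartile scaling gave Sod1 a call (-0.39). Leaving out 1 library moved Sod1 between -0.30 and -0.14, with a call without LPS 1 (adjusted p = 0.0493), and Cat between -0.84 and -0.53, with no call in 3 of 8 fits. The number of members called was 4 and ran from 3 to 6. Of the other named genes, Gsap, Cd82 and Kdm7a lost their call with library totals alone, and Rac1 with upper quartile scaling or no filter. The called total was 8877 genes and ran from 7460 to 10443 over the alternatives.

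Taking replicate numbers as a block changed no call of a member in edgeR. For the ratios, the block gave the same differences, 3.95 for Sod2 to Sod1, 1.20 for Cybb to Cyba and -1.17 for Ncf1 to Ncf4, and its smallest possible p of 0.125 cannot pass the threshold. Without 1 library the smallest possible p is 0.0571, and the differences ran from 3.77 to 4.21, from 0.96 to 1.34 and from -1.37 to -1.02. The order by level kept 6 of 8 ranks in Vehicle with the longest transcript, and 4 of 8 in Vehicle and 6 of 8 in LPS libraries with the principal transcript, a length added after seeing the data. Sod3 could be fitted with no filter on low counts only (-0.09, adjusted p = 0.925). Low counts limit Sod3, and the spread between 4 libraries limits the others.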
